A study of Mus musculus with 8 samples.

Results

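Planar cell polarity is the system by which cells of a sheet or a moving group orient along a common axis. Its core was taken here as the 10 genes Vangl1, Vangl2, Celsr1, Celsr2, Prickle1, Prickle2, Dvl1, Dvl2, Dvl3 and Scrib, chosen by symbol from the platform annotation. All 10 were on the array, among 18193 named genes, and were read by 18 probe sets, a probe set being a group of short oligonucleotides read as 1 signal. Of the 18, 14 probe sets covering 8 genes were bright enough to be tested. The 3 probe sets of Prickle1 and the single one of Dvl3 were not. After Wt1 siRNA, Dvl2 rose 1.88-fold on its brighter probe set, Celsr1 fell to 48.9% of control and Vangl1 rose 1.24-fold on its brighter probe set. The other 11 tested probe sets did not pass. The share called, 21.4% of the 14, was near the 23.1% of all tested probe sets. The Celsr1 signal was close to background after Wt1 siRNA, which leaves the size of its fold uncertain. The Vangl1 call was lost when any 1 of 4 of the arrays was omitted.

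The cells were LB-22, a single immortalized line from mouse embryonic kidney. The 4 arrays of the Wt1 siRNA group and the 4 of the control siRNA group were made from cells given 25 pmol of either siRNA, the control being scrambled, in Lipofectamine 2000 over 6 h and then grown for 48 h. Both groups had been expanded in serum with prostaglandin E1, basic FGF, hydrocortisone, triiodothyronine, insulin, transferrin and interferon gamma, and both were moved from 33 to 37 °C without interferon at transfection. The labels do not tell whether the arrays of a group stem from separate cultures. Each p-value therefore reflects the spread between these arrays alone, which may be technical.

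In flies and vertebrates the core proteins sort to opposite faces of a cell. Vangl and Prickle proteins gather on one face and Frizzled receptors with Dishevelled (Dvl) proteins on the other, while the Celsr cadherins bridge neighbouring cells. In the kidney this system is known for its part in oriented division and elongation of tubules and in ureteric branching. Dishevelled proteins also serve canonical Wnt signalling, and Scrib also serves apical and basal polarity, so neither is limited to this system.

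The promoters of Dvl1 and Dvl2 are shown because the ratio of these paralogues separated the groups of arrays, as given further on. RefSeq windows of 250 bases upstream of an annotated transcript start (build GRCm38.p6) were held for 7 of the 10 genes, and not for Vangl1, Celsr1 and Scrib. Both run 5′ to 3′ on the gene's strand, which is the plus strand. Capitals mark GCGNGGGNG on either strand, a pattern of the GC-rich kind that the WT1 and EGR zinc fingers bind, and CACGTG, an E-box that reads the same on both strands.

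Dvl1, chr4:155847152-155847401: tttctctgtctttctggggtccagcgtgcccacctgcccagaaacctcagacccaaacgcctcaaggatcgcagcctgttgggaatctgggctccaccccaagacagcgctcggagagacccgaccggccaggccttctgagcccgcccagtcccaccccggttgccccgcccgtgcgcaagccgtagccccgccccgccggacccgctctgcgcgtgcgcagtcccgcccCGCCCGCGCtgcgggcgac
Dvl2, chr11:70000342-70000591: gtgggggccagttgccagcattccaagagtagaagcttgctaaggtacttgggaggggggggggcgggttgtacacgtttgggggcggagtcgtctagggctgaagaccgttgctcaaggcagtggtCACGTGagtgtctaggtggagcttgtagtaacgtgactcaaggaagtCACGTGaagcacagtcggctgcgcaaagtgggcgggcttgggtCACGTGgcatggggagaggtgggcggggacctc

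The first pattern occurred once in the Dvl1 window, on the opposite strand with its first base at -19 from the start, and was not in the Dvl2 window. It was found in 10.5% of all 32851 windows of this length, whose median GC content was 52.4%, against 71.2% in the Dvl1 window and 60.8% in the Dvl2 window. Among the 11 windows of the core genes, 3 held it, namely the Dvl1 window and both Prickle1 windows. The E-box letters occurred 3 times in the Dvl2 window and in no other window of the core genes. The E-box was searched after the sequence had been seen, and 6.02% of all windows held at least 1 copy and 0.0609% at least 3. These are matches of letters and not measured binding sites.

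Wt1, the gene aimed at, was lower on every Wt1 siRNA array. In array order 1 to 4 it read 8396.8, 7129.4, 8197.2 and 7423 with control siRNA, and 1679.3, 1531, 1316.8 and 1913.9 with Wt1 siRNA, which left 20.5% of the control signal (log2 difference -2.28 ± 0.11, SE; limma adjusted p = 9.17e-07). Every array had the same mean signal after trimming (1500.01), but their medians fell into a lower class (279.1 to 299.1; 1 control and 3 Wt1 siRNA arrays) and a higher class (336.1 to 346.1; 3 control and 1 Wt1 siRNA arrays). With this class as a block, an alternative chosen after seeing the data, 5987 of the 22518 tested probe sets were called, among them 4 of the 14 of the core genes. Bacterial control probe sets, which have no target in mouse RNA, reached at most 227.2, and their 95th percentile was 109 to 179 across arrays. Of the markers fixed for cell types, those above 227.2 on all arrays were Meis1, Tcf21, Col1a1 and Vim of 7 for kidney stroma, Six2, Osr1 and Eya1 of 5 on the array for nephron progenitors, and Cdh1, Epcam, Krt8 and Krt18 of 5 for epithelium. The stromal gene Foxd1, the progenitor genes Cited1 and Sall1 and the epithelial gene Cldn3 stayed under that level on every array. Kdr of 4 endothelial, Cd68 of 4 leukocyte, Podxl and Synpo of 3 podocyte and Tubb3 of 3 neural markers on the array exceeded it throughout. Some summed marker levels moved with the groups: podocyte markers went from 2766.9 to 5861.5 across control arrays to 1306.3 to 1837.1 across Wt1 siRNA arrays, progenitor markers from 1352.8 to 2010.3 up to 2264.6 to 2854.7, and leukocyte markers from 1777.2 to 1952.1 up to 2517.9 to 2839.3. Of the podocyte markers, Podxl and Synpo fell to 40.3% and 36.9% of control (limma adjusted p = 0.00400 and 0.00105). Nphs1 was too dim to be tested, and its groups overlapped (131.8 to 358.5 in controls, 116 to 369.3 after Wt1 siRNA). Of the 3 progenitor markers tested, only Osr1 was called, at 168% of control, while Six2 and Eya1 did not pass (limma adjusted p = 0.0137, 0.243 and 0.567). Of the leukocyte markers Cd68 rose to 198% of control and Adgre1 fell to 52.9% (limma adjusted p = 5.16e-05 and 0.0244), while Ptprc and Itgam stayed under the bacterial control maximum on every array. Epithelial markers summed to 14073 to 16603 in controls and 12648 to 13101 after Wt1 siRNA, but moved both ways: Cdh1 and Krt8 rose to 194% and 146% of control and Epcam and Krt18 fell to 23.3% and 87.4% (limma adjusted p = 0.00352, 0.0227, 0.00137 and 0.0395). Summed levels were, for endothelial markers, 2044.7 to 2694.7 and 1586.2 to 1825.2, and for neural markers, 1275.3 to 1524.3 and 1531.3 to 1719.4. The endothelial sum was mostly Kdr, the only endothelial marker tested, which fell to 73.0% of control (limma adjusted p = 0.0122). Pecam1 and Tek stayed under the bacterial control maximum on every array, and Cdh5 exceeded it on only 1. The neural markers tested, Tubb3 and Gfap, did not pass (limma adjusted p = 0.331 and 0.763). The stromal sums overlapped, but they were mostly Vim. Of the 5 stromal markers tested, only Col1a1 was called, at 63.6% of control (limma adjusted p = 0.000909). The part of the markers in the results was not tested, and fewer cells of a type cannot be told apart here from less RNA per cell.

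As background, 5194 of 22518 tested probe sets (23.1%) were called at a limma adjusted p under 0.05, 10.8% of all as higher and 12.3% as lower after Wt1 siRNA. Of the 14 tested probe sets of the core genes, 3 were called (21.4%), 2 as higher and 1 as lower, a share near the background. Their median log2 difference was 0.14, with 10 above 0 and 4 below, against -0.01 over all tested probe sets, of which 48.6% were above 0. When each array was centred on its median the differences moved up by 0.11 as a whole, and the calls over all probe sets went from 2430 higher and 2764 lower to 2459 higher and 1369 lower. In 5 of the 14 (35.7%) the arrays of the groups did not overlap, against 27.0% of all tested probe sets.

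**Figure D1:**
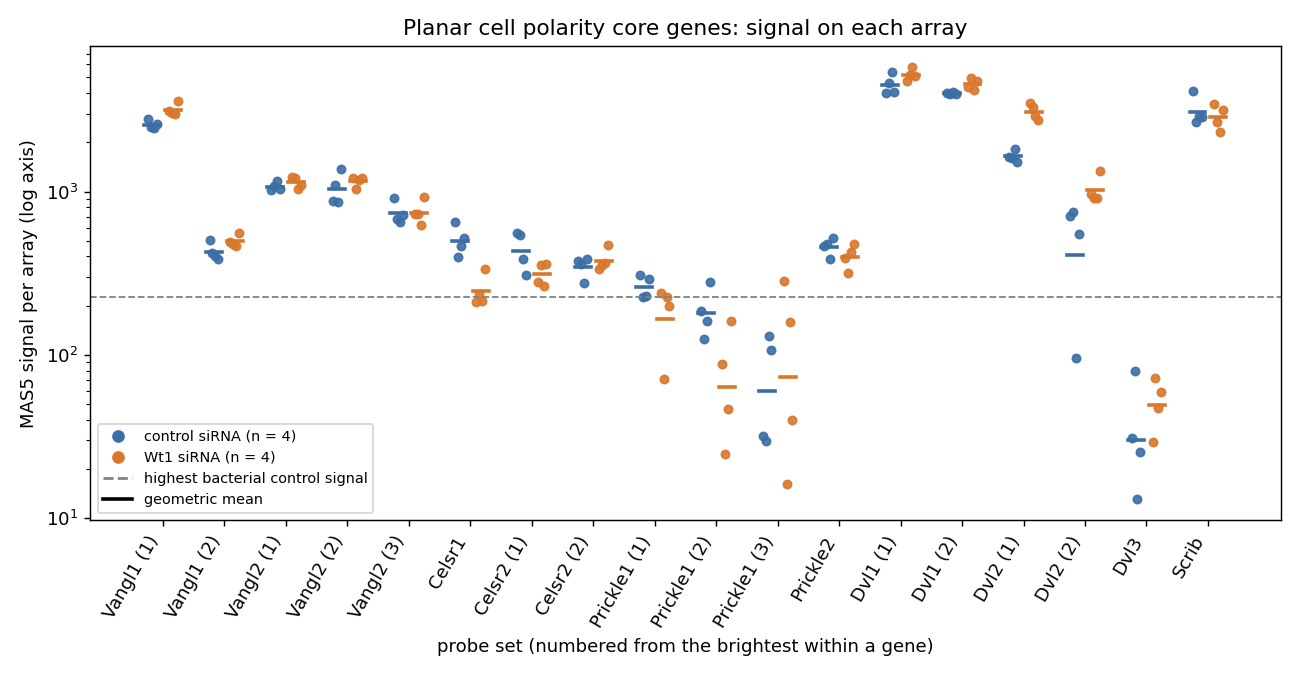
MAS5 signal (log axis) of the 18 probe sets of the core genes on each array, with control siRNA in blue, Wt1 siRNA in orange (n = 4 each), horizontal bars for geometric means and a dashed line at the highest bacterial control signal, 227.2. The groups are apart for the brighter probe sets of Vangl1 and Dvl2, for Celsr1, for the second probe set of Dvl1 and for the second of Dvl2, where control array 3 lies at 95.4.

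**Figure D2:**
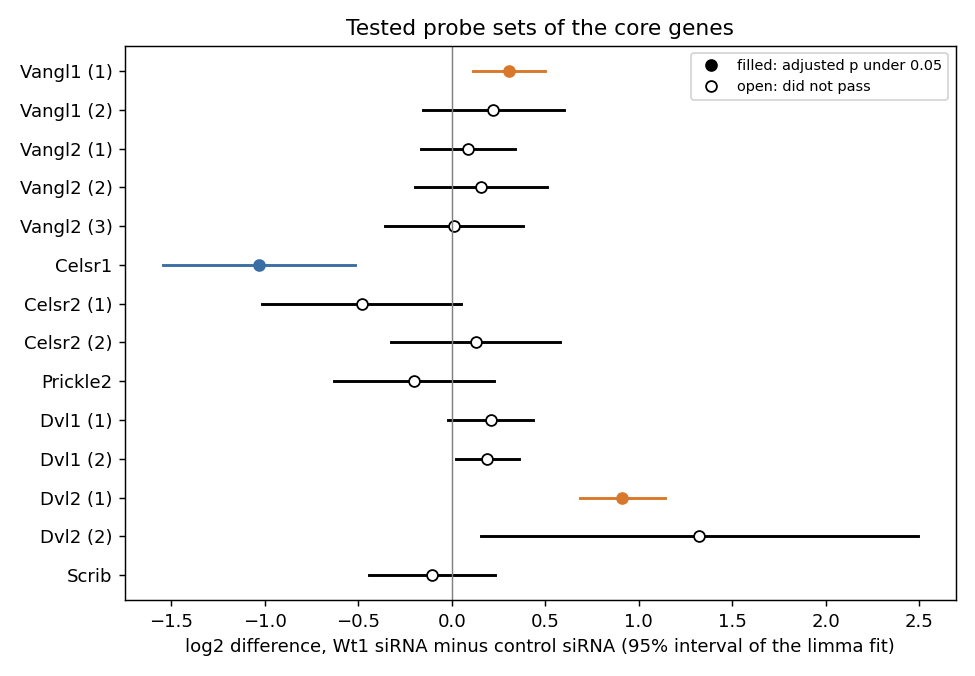
Log2 difference, Wt1 siRNA minus control siRNA, of the 14 tested probe sets with the 95% interval of the limma fit. Filled points passed an adjusted p under 0.05, which are 1 probe set each of Vangl1 (0.31), Celsr1 (-1.03) and Dvl2 (0.91).

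Among the transmembrane proteins, Vangl1 was somewhat higher on its brighter probe set and Vangl2 did not pass on any of its 3. Vangl proteins span the membrane several times and recruit Prickle. On the brighter probe set of Vangl1 (1427234_at) the signals were 2762.4, 2494.4, 2432 and 2604.2 on the control siRNA arrays and 3117.4, 3033.7, 3002.1 and 3580.9 on the Wt1 siRNA arrays. Every Wt1 siRNA array lay above every control array, and array 4 was the highest of them. The log2 difference was 0.31 ± 0.09 (SE; limma adjusted p = 0.0273). It did not pass when control siRNA replicate 2 (adjusted p = 0.0689) or 4 (0.0609) or Wt1 siRNA replicate 1 (0.0580) or 4 (0.0537) was omitted, nor with the mean of both Vangl1 probe sets (0.0956). The dimmer probe set (1441097_at) had signals of 386 to 502.9 in controls and 462.2 to 560.2 after Wt1 siRNA, so its groups overlapped, and its log2 difference was 0.22 ± 0.17 (adjusted p = 0.392).

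The 3 probe sets of Vangl2 gave control means of 1074 ± 64, 1055 ± 245 and 742 ± 118 (SD, n = 4) and Wt1 siRNA means of 1141 ± 94, 1155 ± 84 and 749 ± 124. The groups overlapped on each of them. Their log2 differences were 0.09, 0.16 and 0.01, and the 95% intervals reached from -0.17 to 0.34, from -0.20 to 0.51 and from -0.36 to 0.38. Differences beyond about those sizes were thus outside the intervals, and smaller ones could not be told from 0.

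Celsr1, which encodes a cadherin with a G protein-coupled receptor fold that joins the core complexes of adjacent cells, was lower after Wt1 siRNA. Its single probe set (1418925_at) read 653.7, 396.4, 462.7 and 521.2 on the control arrays and 211.8, 236.4, 214.6 and 333 on the Wt1 siRNA arrays. No array of one group reached the range of the other. The log2 difference was -1.03 ± 0.24 (SE; limma adjusted p = 0.00851), and the interval of the ratio ran from 0.342 to 0.699 of control. The probe set was bright enough for the test only through its control arrays, since its Wt1 siRNA mean (249) was under the lowest mean signal tested (291). With all probe sets fitted the adjusted p was 0.0215. Wt1 siRNA arrays 1 and 3 lay under the highest bacterial control signal, so the size of the fold is uncertain, though all 8 values were above the 95th percentile of those controls on their own array. Within the arrays of lower median the log2 difference was -1.07 (3 Wt1 siRNA against 1 control) and within those of higher median -0.62 (1 against 3), too few for a test. As the array has 1 probe set for Celsr1, no other measurement of it was at hand.

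For Celsr2, a close relative of Celsr1, the 2 probe sets differed in sign and neither passed. The first (1435336_at) read 555.8, 545, 386.7 and 305.8 in controls and 278.2, 354.9, 264 and 359.9 after Wt1 siRNA, with overlap between the groups (log2 -0.48 ± 0.24, limma adjusted p = 0.179, 95% interval -1.02 to 0.05). The second (1422073_a_at) read 275.5 to 384.9 in controls and 336.7 to 466.9 after Wt1 siRNA, a difference of 0.13 ± 0.21 (adjusted p = 0.703).

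Among the cytoplasmic proteins, the Dishevelled genes held the clearest change. Dishevelled proteins carry the signal from Frizzled receptors into the cell. On the brighter probe set of Dvl2 (1417207_at) the signals were 1628.5, 1599.9, 1825.3 and 1521.9 on the control arrays and 3476.2, 3287, 2884.7 and 2753 on the Wt1 siRNA arrays. The lowest Wt1 siRNA array was well above the highest control array. The log2 difference was 0.91 ± 0.10 (SE; limma adjusted p = 0.000105), a ratio of 1.88 with a 95% interval of 1.61 to 2.20. It was 0.81 within the arrays of lower median and 0.80 within those of higher median.

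The other Dvl2 probe set (1448616_at), annotated to the same accession, read 711.8, 744.2, 95.4 and 546.1 in controls and 960.7, 918.6, 913.6 and 1344.4 after Wt1 siRNA. The groups did not overlap here either, but control array 3 was far under the others. With it the difference was 1.32 ± 0.53 and did not pass (limma adjusted p = 0.0980). Without control siRNA replicate 3 it was 0.63 and passed (adjusted p = 0.0274), so the array moved both the size and the call. Median centring of the arrays gave 1.43, which passed as well (adjusted p = 0.0232), and the block for the class of array medians gave 2.16 (adjusted p = 0.00217). Within the arrays of lower median, where control array 3 is the only control, the difference was 3.29, and within those of higher median 1.02.

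Dvl1 was measured at high signal on both probe sets, with small positive differences that did not pass. The first (1437301_a_at) read 4000.9, 4634.2, 5407 and 4062.2 in controls and 4771.8, 5176.6, 5749.6 and 5099.4 after Wt1 siRNA, and the groups overlapped (log2 0.21 ± 0.10, limma adjusted p = 0.178). The second (1450978_at) read 3936.8 to 4047.9 in controls and 4175 to 4962.2 after Wt1 siRNA, with no overlap (0.19 ± 0.08, adjusted p = 0.102, 95% interval 0.02 to 0.36). Array 3 was the highest in both groups on the first probe set, and without control siRNA replicate 3 its difference was 0.30 and passed (adjusted p = 0.0299). It also passed with array weights (0.27, adjusted p = 0.0304). With the class of array medians as a block it was 0.11 (adjusted p = 0.466), and it was -0.05 within the arrays of lower median and 0.27 within those of higher median. For Dvl3 the signals were 13.1 to 79 in controls and 29.1 to 72.2 after Wt1 siRNA, all under the bacterial control maximum, so this probe set gave no usable difference.

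Prickle proteins are cytoplasmic partners of Vangl. The single Prickle2 probe set (1428808_at) read 464.2, 479.1, 383.4 and 522 in controls and 389.9, 319, 424.7 and 479.6 after Wt1 siRNA, with overlapping groups (log2 -0.20 ± 0.20, limma adjusted p = 0.497, 95% interval -0.63 to 0.23). The 3 Prickle1 probe sets were too dim for the test. On the brightest of them (1442172_at) the values were 309.8, 226.4, 228.7 and 291.3 in controls and 237.3, 70.9, 227.1 and 199.6 after Wt1 siRNA. The second (1444759_at) had 124.8 to 278.8 in controls and 24.6 to 161.4 after Wt1 siRNA, and the third (1452249_at) 29.6 to 130.2 and 16.1 to 281.5. The groups overlapped on all 3, and with no filter on signal none passed (limma adjusted p = 0.410, 0.160 and 0.912; unadjusted p under 0.05 for the second alone).

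Scrib, a scaffold protein of the basolateral membrane that binds Vangl2, was at 4118.4, 2665.2, 2885.8 and 2846.3 in controls and 3430.6, 2671.4, 2310.9 and 3178.9 after Wt1 siRNA (1427064_a_at). Control array 1 was the highest value and the groups overlapped. The log2 difference was -0.11 ± 0.15 (limma adjusted p = 0.670, 95% interval -0.44 to 0.23).

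Whether paralogues changed unequally was asked with the log2 ratio of their brightest probe sets within each array, in which the scaling of the array cancels. Only the change of a ratio can be read, since probe sets differ in brightness for reasons other than transcript number. Of the 6 pairs planned, 3 had both genes tested. The log2 ratio of Dvl1 to Dvl2 was 1.30, 1.53, 1.57 and 1.42 on the control arrays and 0.457, 0.655, 0.995 and 0.889 on the Wt1 siRNA arrays. All 4 Wt1 siRNA arrays lay under all control arrays, and the ratio fell by 0.70 on the log2 scale (two-sided exact permutation p = 0.0286, which is the lower limit for 4 arrays a group; Benjamini-Hochberg over the 3 pairs 0.0857). The pair therefore failed the correction, which a single pair at this limit cannot pass over 3 pairs. That outcome was set by the number of arrays and pairs. The ratio of Celsr1 to Celsr2 differed by -0.55 and that of Vangl1 to Vangl2 by 0.22 (exact permutation p = 0.114 for each, adjusted 0.114), and in both pairs the groups overlapped. With all probe sets of a gene averaged, Dvl1 to Dvl2 (-0.92) and Celsr1 to Celsr2 (-0.85) both separated the groups and passed the correction. Celsr1 itself was too dim to be tested as a gene in that setting, and it passed the main filter only through its control arrays. Without control siRNA replicate 2, which had the lowest Celsr1 to Celsr2 ratio of the controls, both pairs passed as well (-0.68 and -0.77). In both settings the pairs passed together, and neither could have passed alone. The pass of Dvl1 to Dvl2 thus rested on that of Celsr1 to Celsr2.

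**Figure D3:**
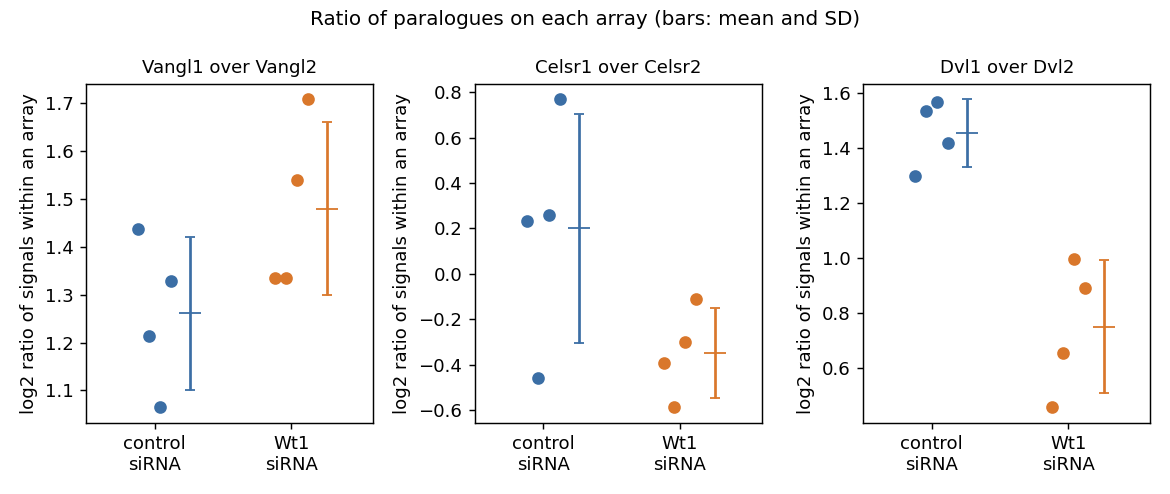
Log2 ratio of the signals of 2 paralogues within an array, for control siRNA (blue) and Wt1 siRNA (orange), 1 point per array with the mean and SD (n = 4) beside them; each panel has its own axis. The Dvl1 to Dvl2 ratio is lower on every Wt1 siRNA array (at most 0.995) than on any control array (at least 1.30), while the other pairs overlap.

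The surroundings of the core were described with a list of 57 further genes of the pathway, each by its brightest probe set. On the array were 53, and 38 were tested, of which 8 rose, 8 fell and 22 did not pass. That is 42.1%, against 27.8% of 11263 genes taken the same way (13.2% higher and 14.6% lower). The list was chosen with earlier results of these data known, so the contrast is not a test of it. The median log2 difference of the 38 was 0.01, beside -0.00 for all 11263 genes. With arrays centred on their medians, 6 of the 38 were called higher and 5 lower. Beside them stood 2459 higher and 1369 lower of 22518 tested probe sets, counted by probe set and not by gene.

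Among the receptors that hand signals to Dishevelled, 3 of the 5 Frizzled genes listed fell and none rose. Of all genes taken the same way, 14.6% were called lower and 13.2% higher. The 5 were listed with earlier results of these data known, so their count is not a test of the family. Fzd6 was at 5207 ± 904 (SD, n = 4) in controls and 2352 ± 121 after Wt1 siRNA (log2 -1.13 ± 0.11, limma adjusted p = 3.93e-05). Its second probe set had the same sign (-0.80, adjusted p = 0.00500), the third was at 0.28 (adjusted p = 0.763), and with the mean of all 3 the call was lost (adjusted p = 0.0597). Fzd7 went from 4673 ± 544 to 2428 ± 228 (log2 -0.94 ± 0.10), or -1.63 with all its probe sets averaged. That average took in a probe set too dim for the test, at 46.1 to 337 after Wt1 siRNA. Fzd1 was at -0.52 ± 0.16, and it did not pass without control siRNA replicate 1, 2 or 3 (adjusted p = 0.0894, 0.0732 and 0.0619) or Wt1 siRNA replicate 1, 2 or 3 (0.0501, 0.0805 and 0.0704), nor after median centring (0.121), quantile normalization (0.0510), fitting all probe sets (0.0616) or dropping the intensity trend (0.0671), nor with the class of array medians as a block (0.0842). Fzd2 did not pass on its brightest probe set (-0.18, adjusted p = 0.207), though the other 2 passed as lower at -0.58 and -0.85, and Fzd3 was at -0.02 ± 0.22 (adjusted p = 0.969).

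Of the Wnt co-receptors tested, Ror1, a receptor tyrosine kinase-like protein that binds Wnt5a, fell to 43.5% of control (2428 ± 199 against 1060 ± 135, SD, n = 4). Its other tested probe set was at -0.29 (limma adjusted p = 0.520), and the log2 difference went from -1.20 to -0.75 with all probe sets averaged, an untested dim one included. Ptk7 and Ryk did not pass (0.16 ± 0.11 and -0.12 ± 0.08), and Ror2 was too dim to be tested. The ligand genes Wnt5a and Wnt4 and the glypican gene Gpc4 did not pass on their brightest probe sets (adjusted p = 0.0646, 0.691 and 0.0931), while second probe sets of Wnt4 (0.55, adjusted p = 0.0183) and Gpc4 (0.43, adjusted p = 0.0121) passed as higher.

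Partners of the core proteins moved both ways. Gipc1, a PDZ adaptor that binds Vangl2 and guides its traffic, had the largest difference among the tested brightest probe sets and fell to 41.5% of control (3678 ± 370 against 1531 ± 217, SD, n = 4; log2 -1.27 ± 0.12, limma adjusted p = 3.00e-05). Smurf1, a ubiquitin ligase that targets Prickle1, rose 1.39-fold. Of the Dishevelled partners tested, Csnk1e and Csnk1d, casein kinases that phosphorylate Dvl, rose 1.33-fold and 1.22-fold, although 1 of 5 Csnk1d and 1 of 3 Csnk1e probe sets had the opposite sign (-0.32, adjusted p = 0.0757, and -0.28, adjusted p = 0.347). The Csnk1d call did not hold without control siRNA replicate 1 (adjusted p = 0.0654) or 4 (0.0764) or Wt1 siRNA replicate 1 (0.0853), 2 (0.0800) or 3 (0.0531), nor after median centring (0.0715), fitting all probe sets (0.0529) or dropping the trend (0.0700), nor with the class of array medians as a block (0.0822). Invs, encoding inversin, fell to 63.0% of control (adjusted p = 0.0236). It did not pass when control siRNA replicate 1 (adjusted p = 0.0548) or 4 (0.0723) or Wt1 siRNA replicate 1 (0.0652) or 2 (0.0653) was omitted, nor after quantile normalization (0.0581) or median centring (0.0838).

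In the Scribble module, Llgl2, a homologue of the fly tumour suppressor lgl, rose 1.52-fold and Git1, a scaffold that works with the Scrib partner Arhgef7, 1.63-fold, while Dlg1, Dlg5, Llgl1 and Arhgef7 did not pass. Lpp did not pass on its brightest probe set (-0.28, limma adjusted p = 0.140), though 4 of its 7 tested probe sets passed as lower (-0.67 to -0.42). Of the effectors, the formin genes Daam1 and Daam2, which bind Dishevelled and act on actin, fell to 71.5% and 60.5% of control (limma adjusted p = 0.0133 and 0.00208). Daam1 did not pass with median centring (adjusted p = 0.145) and went from -0.48 to -0.75 with all its probe sets averaged. That average took in a probe set too dim for the test, at 45.3 to 203.4 after Wt1 siRNA. Rhoa and Mapk9 rose 1.23-fold and 1.28-fold, and another Mapk9 probe set passed in the opposite direction (-0.60, adjusted p = 0.0210). With all probe sets averaged, neither Rhoa (0.11, adjusted p = 0.769) nor Mapk9 (0.01, adjusted p = 0.947) passed. The Rhoa average took in a probe set too dim for the test (2.7 to 36.3 over the arrays). Both tested Rhoa probe sets passed as higher (0.30, limma adjusted p = 0.0204, and 0.24, adjusted p = 0.0326). Omitting control siRNA replicate 4 ended the calls of Rhoa (adjusted p = 0.0673), Mapk9 (0.0506) and Fat1 (0.0554), as did control siRNA replicate 2 for Rhoa (0.0552), Wt1 siRNA replicate 1 for Mapk9 (0.0612) and Wt1 siRNA replicate 3 for Fat1 (0.0735). Without the trend neither Rhoa (0.0554) nor Fat1 (0.0631) passed, and Fat1 did not pass after median centring (0.0660). The atypical cadherin gene Fat1 rose 1.18-fold, the only gene of the Fat and Dachsous system that was bright enough for the test. The 4 tested ciliary effectors (Intu, Wdpcp, Cplane1 and Cplane2) did not pass.

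**Figure D4:**
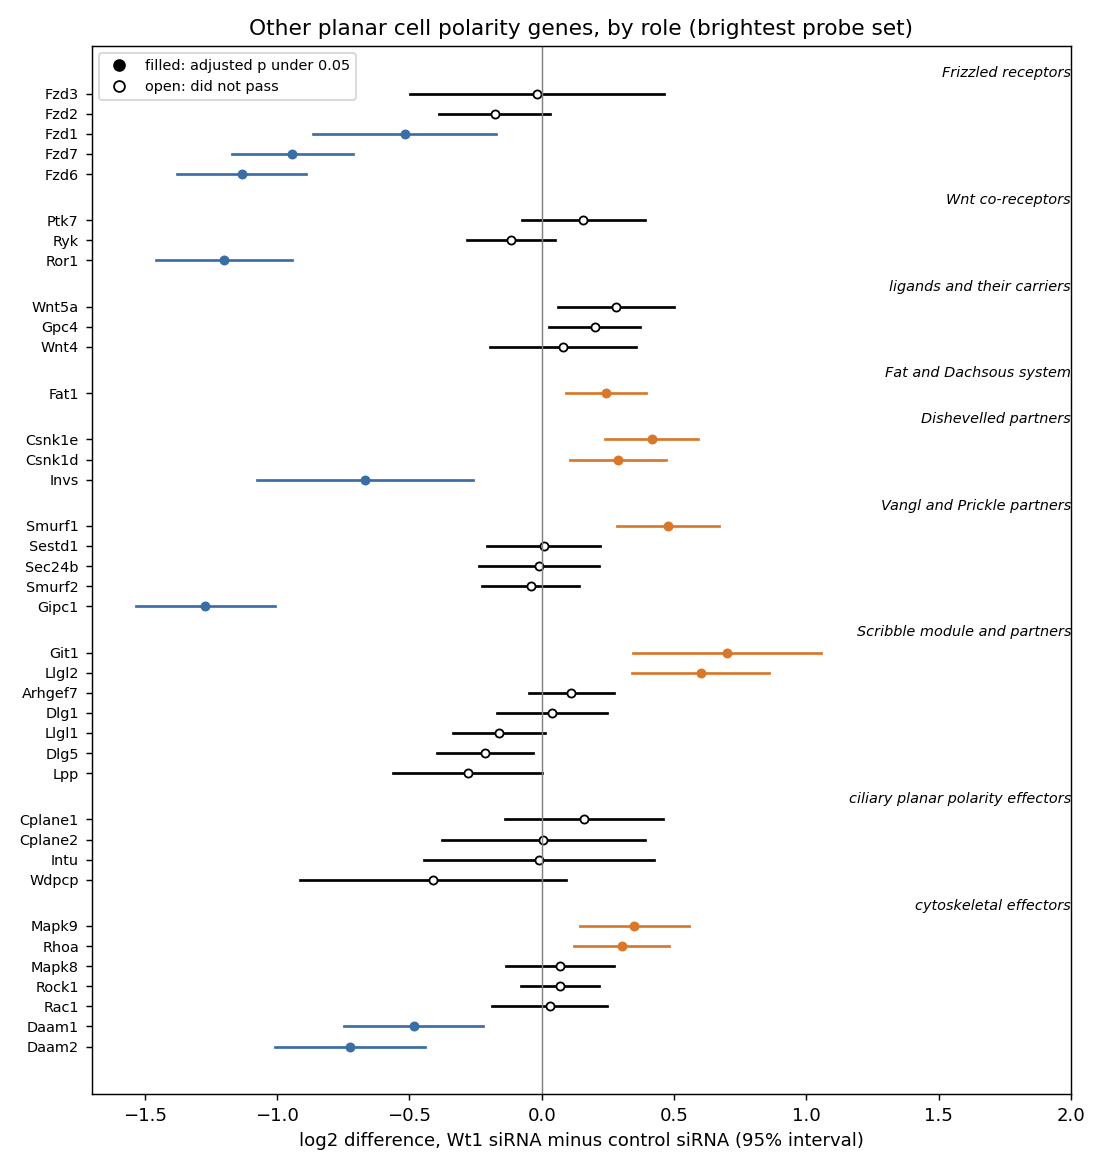
Log2 difference, Wt1 siRNA minus control siRNA, with the 95% interval of the limma fit, for the 38 tested pathway genes outside the core, grouped by role. Filled points passed an adjusted p under 0.05 (8 higher in orange, 8 lower in blue); the lowest values belong to Gipc1 (-1.27), Ror1 (-1.20), Fzd6 (-1.13) and Fzd7 (-0.94).

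The genes whose signals ran most like the Dvl2 probe set with the largest difference (1448616_at) were Sun1, Ppm1f and Pvr, with Pearson correlations of 0.995, 0.992 and 0.992 over the 8 arrays and 0.956, 0.928 and 0.931 without control siRNA array 3. The points share their arrays and scaling, and these genes did not pass themselves (limma adjusted p = 0.0968, 0.115 and 0.109).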

How the data were processed

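Total RNA of 8 LB-22 samples (4 per group) was measured on Mouse 430_2 arrays. The deposited intensity values are linear MAS5 signals, 1 per probe set and array, per the submitters' processing notes; version and detection calls are not given in the sources used here. No reference genome was used for the values.

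Probe sets were named by the platform annotation with symbols updated through Entrez IDs: of 45037 that are not array controls, 34945 had 1 symbol, 932 several and 9160 none, and only the first kind was named. The log2 of each value was used as it stood, with no normalization added. The brighter 0.5 by mean log2 signal over all arrays (22518 probe sets, lowest mean 291) was tested with limma 3.58.1 in R 4.3.3 (lmFit, eBayes with intensity trend), two-sided, with Benjamini-Hochberg adjustment over all tested probe sets and a threshold of 0.05.  Errors after log2 differences are SEs of the fit. The median SD within groups was 0.192 (log2) for tested probe sets and 0.863 for the dimmer rest, and precision is limited by the number of arrays.

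The members and lists were chosen with earlier results of these data known. Named beyond the members were Wt1, the 12 other pathway genes past the threshold with the largest differences, 9 fixed receptor and homologue genes (Prickle3 had no probe set named for it, and Celsr3 was too dim to test), and the 3 genes most correlated with 1 member probe set. Csnk1d, Rhoa, Mapk9, Fat1, Fzd2, the ligand and ciliary genes and the Scribble module genes that did not pass were named after their values were seen.

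The settings tried besides were quantile normalization, median centring, the replicate number as a fixed block, an offset of 16 or 64, testing all or the brightest 0.25 of the probe sets, eBayes robust or without trend, array weights, 1 probe set or the mean per gene, omission of probe sets ending in _s_at, _x_at or _a_at, a threshold of 0.01 and leaving out each array. A block for the class of array medians was added after seeing the data. Same-numbered arrays did not deviate together (correlations of deviations -0.06 to 0.08), so the values show no pairing by number. Whether they were handled in pairs cannot be told from this.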

Additional observations from a re-analysis of the deposited data

Results flagged for a closer look

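Chance alone marks about 1 in 20 groups in a check for a value far from the other 3 of its group, and 4 of the 38 groups of Wt1 and core gene probe sets were marked. On the Dvl2 probe set 1448616_at, control siRNA array 3 read 95.4 and Wt1 siRNA array 4 read 1344.4, each far from the rest of its group. On the Vangl2 probe set 1419218_at, Wt1 siRNA array 2 read 1031.4, just under 3 closely grouped arrays. On the Prickle1 probe set 1442172_at, Wt1 siRNA array 2 read 70.9, under the background level.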

How the results depend on the processing

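The brighter Dvl2 probe set kept its call under all 23 alternatives (log2 difference 0.81 to 1.12), whereas Vangl1 kept its call in 17 of 23. Celsr1 kept its call under the 20 alternatives in which it was tested (log2 difference -1.18 to -0.85). It was too dim to be tested with only the brightest probe sets, with 1 probe set a gene or with the mean over probe sets. Its kept calls therefore hold only for settings that let it through the filter on signal, or that set none. The Wt1 difference ran from -2.37 to -2.19 when single arrays were left out. Its probe set ends in _s_at, so it has no value without such probe sets. Leaving out single arrays, 3774 to 5763 probe sets, 2 to 5 core gene probe sets (5 without control siRNA replicate 3), 11 to 18 further pathway genes and 0 to 2 paralogue pairs (2 without control siRNA replicate 2) were called. With 1 probe set a gene 3395 genes were called, with the mean over probe sets 2377 genes, 1 core gene (Dvl2, of 6 tested) and 2 paralogue pairs, and at a threshold of 0.01 2720 probe sets and 9 further pathway genes; fewer features or a stricter threshold enter there by construction. With the replicate block 4608 probe sets, 3 core gene probe sets and 15 further pathway genes were called. Fat1 was the call lost (adjusted p = 0.0513), and the other pathway genes and core gene probe sets called in the text kept their calls under the block. Pairing by replicate number gave the Dvl1 to Dvl2 ratio an exact p of 0.125, the smallest that 4 pairs allow. Changes of sign touched only differences that had not passed, and the cause was not tested. Fzd3 turned to 0.10 with quantile normalization, 0.091 with median centring and 0.020 with array weights, and ran from -0.17 to 0.13 as single arrays were left out. Scrib was at 0.0028 with median centring and at -0.19 to 0.034 as single arrays were left out. Ryk was at 0.030 with the mean over probe sets. With array weights the Vangl2 probe sets 1419218_at and 1455592_at were at -0.0044 and -0.048 and the Celsr2 probe set 1422073_a_at at -0.027, and Vangl2 1455592_at ran from -0.090 to 0.12 as single arrays were left out. Signals near the bacterial controls limit what can be said of Dvl3, Prickle1 and the Wt1 siRNA values of Celsr1.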
